A study of Rattus norvegicus with 30 samples.

Results

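The enzymes that remove superoxide and peroxides were followed in cultured rat liver cells dosed with acetaminophen. This pain reliever is cleared by the liver through conjugation and, in part, through oxidation to a reactive product that consumes glutathione. The genes were taken from a list of 10 symbols: Cat, Sod1, Sod2, Gpx1, Gpx4, Prdx1, Prdx2, Prdx3, Prdx5 and Prdx6. Of the 10, 9 had a probe set of their own among the 14217 genes named on the array, and all 9 were among the 8531 genes tested. Prdx1 had none, because the 1 probe set that lists it also lists Prdx1l1, and it is described separately below without being assigned to either gene.

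The cells were purchased frozen hepatocytes from male Sprague Dawley rats, plated on collagen and covered with Matrigel, a basement membrane gel. On day 3 of culture, wells received vehicle (1% DMSO), 500 µM acetaminophen or 5000 µM acetaminophen, the doses being made up in DMSO as well, and RNA was collected 24 or 48 h later. Each of the 6 groups held 5 wells and 5 arrays, described in the protocol as independent cultures. The age of the rats is not given in the labels, nor whether the cells came from 1 animal or several, so each p-value rests on well-to-well spread and says nothing of animals. Purchased hepatocytes held in culture on a plate are the model throughout, and signals of markers of other liver cells are given below.

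Superoxide, made mainly by the respiratory chain and by oxidases, is converted by superoxide dismutases to hydrogen peroxide. Sod1 does this in the cytosol and Sod2 in the mitochondrial matrix. Hydrogen peroxide is then split by catalase in peroxisomes, which are abundant in hepatocytes, or reduced by glutathione peroxidases at the cost of glutathione and by peroxiredoxins at the cost of thioredoxin. Gpx1, the main cytosolic glutathione peroxidase of liver, carries selenium in its active site. Gpx4, another selenoenzyme, reduces peroxides within membrane lipids, and 1 gene makes its cytosolic, mitochondrial and nuclear forms. Prdx2 is cytosolic, Prdx3 is mitochondrial, and Prdx5 is found in mitochondria and peroxisomes as well as elsewhere. Prdx6 is a cytosolic peroxiredoxin that takes its electrons from glutathione and also acts on phospholipids. For the comparison by place, Sod1, Gpx1, Prdx2 and Prdx6 were counted as cytosolic and Sod2, Prdx3, Prdx5 and Cat as mitochondrial or peroxisomal, with Gpx4 kept apart. These are main locations, since Sod1 and Gpx1 also occur in mitochondria.

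The 250 bases before the annotated start of Gpx1, Sod2 and Prdx3 are shown because these were the 3 enzymes called changed at 5000 µM after 24 h in the main fit. Of these calls, only that of Gpx1 held under every other setting described below. The stretches are printed 5′ to 3′ along the gene from the RefSeq rat promoter table (build GRCr8), and capitals mark matches to the motifs searched.
Gpx1, chr8:117905212-117905461, plus strand: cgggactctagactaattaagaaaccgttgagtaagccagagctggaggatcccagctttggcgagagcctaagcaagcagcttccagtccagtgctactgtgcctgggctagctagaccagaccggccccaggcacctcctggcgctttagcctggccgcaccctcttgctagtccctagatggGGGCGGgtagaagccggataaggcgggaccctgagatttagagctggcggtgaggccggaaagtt
Sod2, chr1:50050169-50050418, minus strand: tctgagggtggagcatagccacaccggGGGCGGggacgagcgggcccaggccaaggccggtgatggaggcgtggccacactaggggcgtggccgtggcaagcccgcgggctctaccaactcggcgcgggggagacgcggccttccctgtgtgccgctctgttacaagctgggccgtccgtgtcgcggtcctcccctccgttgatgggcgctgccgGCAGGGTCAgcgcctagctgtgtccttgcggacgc
Prdx3, chr1:270000112-270000361, minus strand: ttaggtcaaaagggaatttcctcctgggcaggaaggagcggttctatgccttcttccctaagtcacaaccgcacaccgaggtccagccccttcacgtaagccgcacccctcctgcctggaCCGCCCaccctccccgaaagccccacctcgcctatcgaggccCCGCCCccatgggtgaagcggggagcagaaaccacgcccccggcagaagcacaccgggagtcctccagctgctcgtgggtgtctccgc
The capitals in Gpx1 are 1 GC box (GGGCGG on either strand) at bases -65 to -60 from the start, and those in Prdx3 are 2 GC boxes beginning at -130 and -88. The Sod2 stretch held 1 GC box beginning at -223 and, at -35 to -27, 1 match to the antioxidant response element TGACNNNGC on the opposite strand. The same searches on both strands found a GC box in 30.5% of the 33360 promoters in the table and the antioxidant response element letters in 10.1%. The other motifs searched were the CCAAT box (CCAAT), the TATA box (TATAAA), the cAMP response element (TGACGTCA), the E-box (CACGTG) and the PPAR DR1 element, held by 34.0%, 12.9%, 1.59%, 5.61% and 0.051% of promoters, and none of these was in the 3 stretches printed. Of the motifs searched no match overlapped another in these stretches. Cat differed in having 4 CCAAT boxes and no GC box. A match of letters describes the sequence and is not evidence of binding. Gpx1 itself lies on chromosome 8 at 117905462 to 117906588, Sod2 on chromosome 1 at 50043323 to 50050168 and Prdx3 on chromosome 1 at 269987691 to 270000111 of the same build, and Prdx6 had no promoter entry.

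Signals are linear MAS5 intensities, scaled by the authors to a common level per array, and differences are given on the log2 scale with the standard error (SE) of a limma fit to all 30 arrays. A gene was called changed where its p, adjusted by Benjamini-Hochberg for the 8531 genes tested, was under 0.05. Levels are compared only within a probe set, not between genes. All 9 enzymes were bright: from 0.57% (Sod1) to 3.85% (Prdx3) of the 14217 genes had a higher mean signal. Hepatocyte markers were abundant, with 9 of 10 listed genes measured and a summed signal of 359000 to 469000 per array. Of other cell types, 8 of 10 Kupffer cell and leukocyte markers were measured and 3 were bright enough to test. Their summed signal ran from 23200 to 30700 in vehicle and from 20100 to 23000 at 5000 µM after 24 h, and from 24700 to 29000 and 21400 to 23500 after 48 h, while the defining Kupffer markers Clec4f and Cd163 averaged 270 and 67.5, under the 469 of the dimmest gene tested. The sums of the stellate cell (10 of 10 measured, 2 tested), endothelial (7 of 10, 1 tested), cholangiocyte (5 of 8, 1 tested) and erythroid (5 of 8, none tested) lists ran over all arrays from 2660 to 3610, 946 to 1820, 8990 to 14500 and 493 to 1080. Nearly all of the cholangiocyte sum was Epcam, with Krt19 and Krt7 averaging 148 and 11.9.

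RNA quality differed between groups and touches several results below. It was read from the β-actin control probe sets as 3′ over 5′ signal on the log2 scale, which is higher where the labelled RNA is less complete. After 24 h this ratio averaged 1.78 ± 0.24 (SD, n = 5) without acetaminophen, 1.61 ± 0.33 with 500 µM and 1.37 ± 0.22 with 5000 µM. After 48 h it was 1.24 ± 0.11, 1.86 ± 0.12 and 1.21 ± 0.05 in the same order. The widest gap between arrays lay from 1.54 to 1.74. In the 24 h groups 2 vehicle arrays, 2 arrays at 500 µM and 4 at 5000 µM lay below it. After 48 h all 5 vehicle and all 5 arrays at 5000 µM lay below the gap, and all 5 at 500 µM lay above it. At 500 µM and 48 h the dose and the ratio therefore cannot be told apart, whereas 5000 µM and vehicle at 48 h had like ratios.

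Across the 6 groups the enzymes moved little. The highest and lowest group means of an enzyme differed by 1.10-fold for Sod1, by 1.16-fold for Cat, Gpx4 and Prdx6, by 1.21-fold and 1.22-fold for Prdx2 and Prdx5, by 1.26-fold for Prdx3, by 1.31-fold for Sod2 and by 1.39-fold for Gpx1. Ordering the 6 groups by mean gave 5 neighbouring pairs for each enzyme. Arrays overlapped in 44 of these 45 pairs. The exception was Gpx1, for which the 500 µM wells at 48 h all lay above the 5000 µM wells at 48 h. Neighbours in such an order are the closest groups by mean, so the sorting itself favours overlap. The share over all genes is not given for this count, which does not measure how far the enzymes moved. Gpx1 ran from vehicle at 48 h, the highest, through 500 µM and then vehicle at 24 h and 500 µM at 48 h, to 5000 µM at 48 h and 5000 µM at 24 h.

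**Figure D1:**
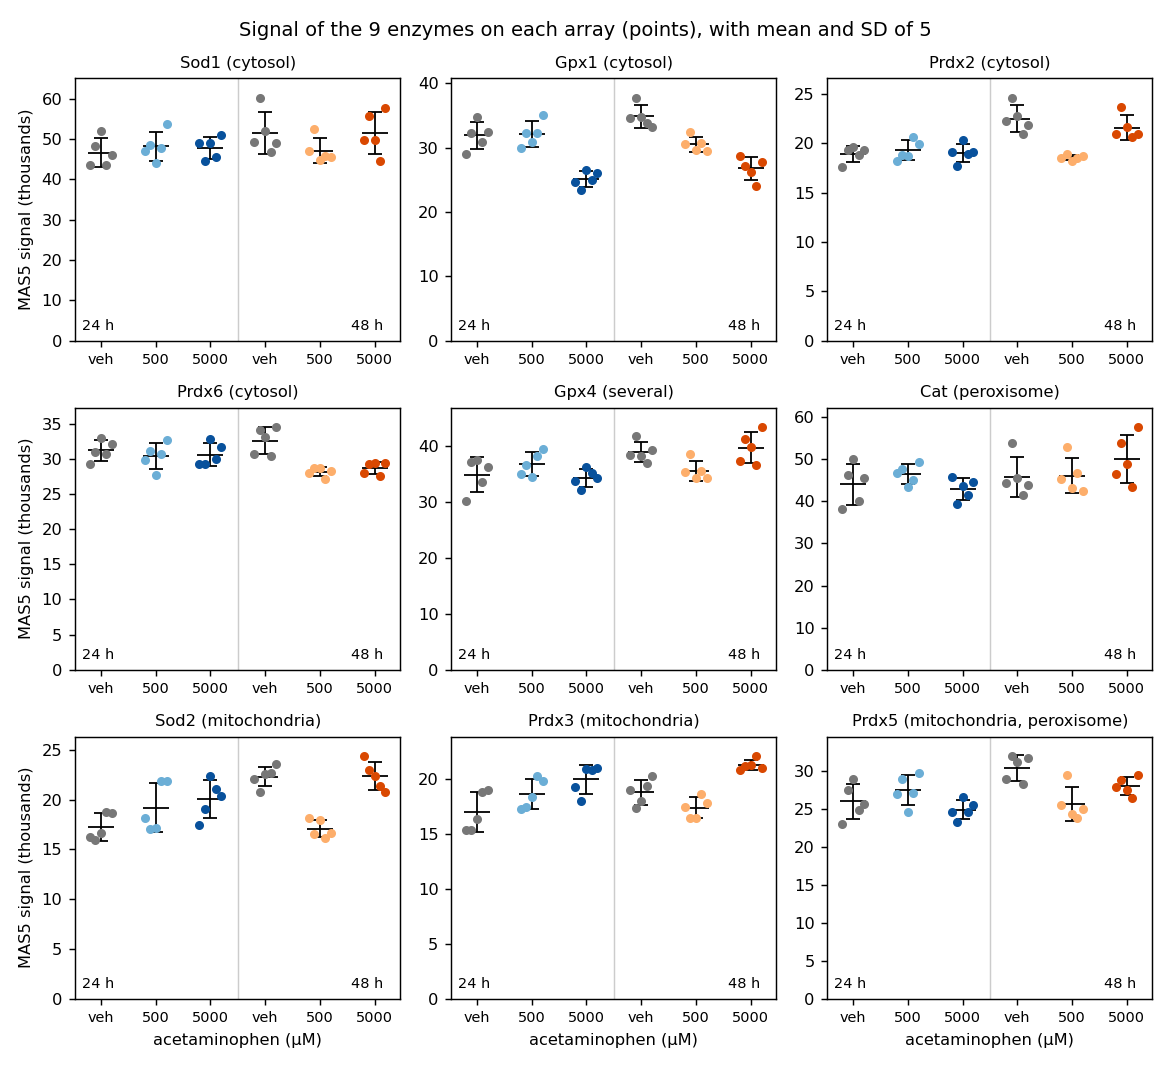
Signal of each of the 9 enzymes as MAS5 intensity divided by 1000 (y axis, from 0) in the 6 groups of dose (x axis, µM) and time (24 h left, 48 h right of the line). Points are single arrays and the bars give the mean and SD of 5; the Gpx1 points at 5000 µM lie below all vehicle points of the same time, while those of Cat and Sod1 overlap between neighbouring groups.

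Gpx1 fell at 5000 µM at both times. After 24 h its signals in the 5 vehicle wells were 29063, 32358, 34740.5, 30896 and 32479. In the 5 wells at 5000 µM they were 24641, 23384, 26512, 25034 and 26128. All 5 treated wells were below the lowest vehicle well, with means of 25139.9 ± 1245 (SD, n = 5) against 31907 ± 2102. The log2 difference was -0.34 ± 0.05 (SE), a fold of 0.789 (limma, adjusted p = 5.44e-06). After 48 h the vehicle wells read 34673, 37765, 34828, 33802 and 33250.5. The wells at 5000 µM read 28679, 27222, 26177, 24116 and 27721. Again no treated well reached the lowest vehicle well, and the difference was -0.38 ± 0.05, a fold of 0.768 (adjusted p = 1.16e-06). The fall at 5000 µM did not differ detectably between 24 and 48 h (difference of differences -0.04, 95% interval -0.19 to 0.12, limma adjusted p = 0.784). Gpx1 was lower at 5000 µM by -0.33 (adjusted p = 0.00188) among those 24 h arrays that lay below the ratio gap, and by -0.38 with the ratio as a covariate at both times. It kept its call at both times when each of the 30 arrays was left out in turn and under every other setting run. Of the 3 tested genes of the Kupffer cell list Cd14 fell beside it, by -0.54 ± 0.07 at 24 h and -0.28 ± 0.07 at 48 h, whereas Cd68 was at 0.18 and -0.10 and Lyz2 at -0.07 and -0.15, neither called (limma, adjusted p from 0.112 to 0.674), and the part of other cells in the fall of Gpx1 was not tested. In bulk samples such as these, fewer cells of a type and less RNA per cell cannot be told apart.

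Prdx3, the peroxiredoxin of the mitochondrial matrix, rose at 5000 µM. After 24 h the vehicle wells had signals of 15382, 15307, 16343, 18793 and 18982. The wells at 5000 µM had 19215, 17998, 20886, 20832 and 20960.4. The groups overlapped, since 1 treated well lay within the vehicle range, and the difference was 0.24 ± 0.06, a fold of 1.18 (limma, adjusted p = 0.00271). After 48 h the vehicle wells had 18946, 17314, 17952, 19395 and 20226. Those at 5000 µM had 20802, 21137, 21288, 22077 and 20978, every one above the highest vehicle well. The difference was 0.18 ± 0.06, a fold of 1.13 (limma, adjusted p = 0.0251). At 24 h the 3 vehicle wells with the lowest Prdx3 were also the 3 with a 3′/5′ ratio above the gap. Among arrays below the gap the 24 h difference was 0.09 (adjusted p = 0.358) and with the ratio as a covariate 0.10 (adjusted p = 0.215). At 48 h, where the ratios were alike, the covariate left 0.17 (adjusted p = 0.00709), and the call was lost on leaving out vehicle replicate 2 or 3 or 5000 µM replicate 4 (highest adjusted p = 0.0783).

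Sod2, the manganese superoxide dismutase of the mitochondrial matrix, rose at 5000 µM after 24 h. Its signals were 16246, 15932, 16618, 18766 and 18665 in the vehicle wells. They were 17488, 19042, 22393, 21049.8 and 20356 at 5000 µM, with overlap in 1 treated well. The difference was 0.22 ± 0.07, a fold of 1.16 (limma, adjusted p = 0.016). At 48 h Sod2 had means of 22311 ± 999.7 (SD, n = 5) in vehicle and 22361 ± 1418 at 5000 µM, a difference of 0.00 with a 95% interval from -0.14 to 0.15. The change between the times, -0.21, was not called (limma, adjusted p = 0.147), so the effect is not shown to differ between 24 and 48 h. The same 3 vehicle wells as for Prdx3 had the lowest Sod2 signals. With the 3′/5′ ratio entered as a covariate the 24 h difference was 0.04 (adjusted p = 0.691) and among arrays below the gap 0.14 (adjusted p = 0.143). It turned to -0.03 (adjusted p = 0.777) where a block of the arrays' serial numbers, described in the closing section, was added to the covariate. The call was also lost without vehicle 24 h replicate 2 or 5000 µM 24 h replicate 3 (highest adjusted p = 0.0647).

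Prdx6 fell at 5000 µM at 48 h. The vehicle wells read 30763, 34220.2, 33099.9, 30479.6 and 34603. The wells at 5000 µM read 28021, 29265, 29392, 27558 and 29442. No treated well reached the lowest vehicle well, and the difference was -0.18 ± 0.05, a fold of 0.882 (limma, adjusted p = 0.0038). At 24 h the signals ran over 29301 to 33089.7 in vehicle and 29259.8 to 32949 at 5000 µM, with a difference of -0.03 (95% interval -0.13 to 0.07). The difference between the times, -0.15, was not called (limma, adjusted p = 0.125). Median centring of the arrays, described in the closing section, ended the 48 h calls of Prdx6 (-0.18, adjusted p = 0.172) and Prdx3 (0.18, adjusted p = 0.21) without moving their size, and that of Prdx3 at 24 h (0.17, adjusted p = 0.201) and of Sod2 (0.15, adjusted p = 0.293).

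The remaining 5 enzymes were not called at 5000 µM at either time, and their intervals bound what could have gone unseen. Sod1, the copper-zinc superoxide dismutase, averaged 46609 ± 3584 (SD, n = 5) in vehicle and 47816 ± 2711 at 5000 µM after 24 h, a difference of 0.04 (95% interval -0.10 to 0.18). After 48 h it averaged 51460.5 ± 5213 and 51503 ± 5212, a difference of 0.00 (-0.14 to 0.14). Its wells overlapped in both. Cat, which encodes catalase, averaged 44069.5 ± 4798 and 43014 ± 2598 after 24 h (-0.03, interval -0.19 to 0.13) and 45847 ± 4751 and 50120.5 ± 5687 after 48 h (0.13, interval -0.03 to 0.29). Its wells scattered the most of the 9, and again overlapped. Gpx4 differed by -0.02 (-0.14 to 0.10) and 0.03 (-0.09 to 0.14), Prdx2 by 0.01 (-0.09 to 0.11) and -0.06 (-0.16 to 0.04), and Prdx5 by -0.06 (-0.19 to 0.07) and -0.12 (-0.24 to 0.01) at 24 and 48 h. The adjusted p-values of these 3 ran from 0.158 to 0.927 in limma.

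Counted together, 2 of the 9 enzymes rose and 1 fell at 5000 µM after 24 h, where 38.1% of the 8531 genes were called (18.6% higher and 19.6% lower). After 48 h 1 rose and 2 fell, where 32.6% were called (14.6% higher and 18% lower). The called share of the enzymes, 3 of 9 at each time, was near that of all genes. Their median difference was -0.02 at 24 h and 0.00 at 48 h, beside medians of 0.00 and -0.01 for all genes. Arrays of treated and vehicle wells did not overlap for 1 of the 9 at 24 h, where 24.1% of all genes had such groups, and for 3 at 48 h, where 25.4% had. By place, 1 of the 4 cytosolic enzymes (Gpx1) fell after 24 h and 2 (Gpx1 and Prdx6) after 48 h, and none rose. Of the 4 mitochondrial and peroxisomal enzymes 2 (Sod2 and Prdx3) rose after 24 h and 1 (Prdx3) after 48 h, and none fell. Medians of the cytosolic enzymes were -0.01 and -0.12, and those of the mitochondrial and peroxisomal enzymes 0.09 and 0.06. With 4 genes on each side these counts describe the members. The difference between the places was not tested. On the arrays below the ratio gap at 24 h only the fall of Gpx1 was called.

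**Figure D2:**
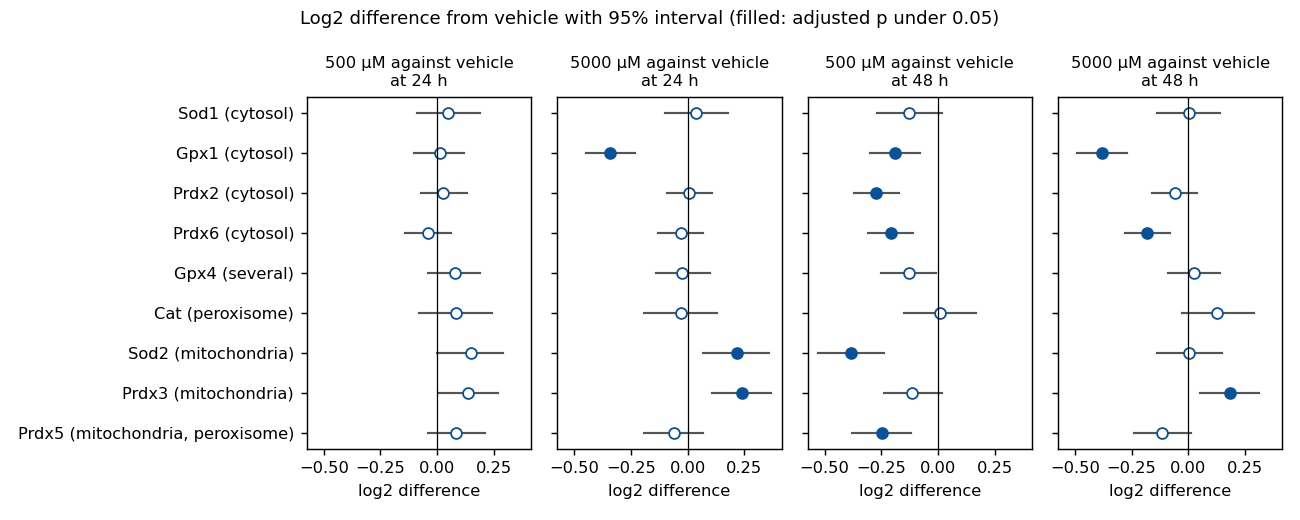
Log2 difference from vehicle of the same time (x axis) with its 95% interval for each of the 9 enzymes, ordered by place in the cell, at 500 and 5000 µM after 24 and 48 h. Filled points passed an adjusted p of 0.05; at 5000 µM Gpx1 lies at -0.34 and -0.38 and Prdx3 at 0.24 and 0.18, and at 500 µM and 48 h every called enzyme lies below 0.

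At 500 µM and 24 h none of the 9 enzymes was called by limma, with 2.86% of all genes called (1.65% higher and 1.21% lower). The largest differences of the 9 were those of Sod2 (0.15 ± 0.07, adjusted p = 0.255) and Prdx3 (0.14 ± 0.06, adjusted p = 0.233). Only these had an unadjusted p under 0.05. The share of all genes at that unadjusted threshold is not given, here or below. Sod2 in the 500 µM wells read 18134, 17004, 17164, 21832 and 21849. The last 2 of these wells, which lay above all vehicle wells, were the 2 with ratios below the gap. For Gpx1 the difference was 0.01, with a 95% interval from -0.10 to 0.12, and all 9 enzymes had overlapping groups, where 4.75% of genes did not overlap. The median of the 9 was 0.08 and that of all genes -0.02.

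At 500 µM and 48 h 5 of the 9 enzymes fell and none rose, in a comparison where 42.6% of genes were called, 24% higher and 18.6% lower. The median of the 9 was -0.19 and that of all genes 0.01. Sod2 had the largest difference. Its wells read 22054, 20799, 22535, 22636 and 23532 in vehicle and 18122, 16534, 17914, 16179 and 16658 at 500 µM. All 5 treated wells were below all vehicle wells (-0.39 ± 0.07, a fold of 0.765, limma adjusted p = 0.000102). Prdx2, the cytosolic peroxiredoxin abundant in red cells and also made by liver, read 22209, 24594, 22784, 20935 and 21821 in vehicle. At 500 µM it read 18534, 18902, 18232, 18476 and 18702, close together and below every vehicle well (-0.27 ± 0.05, a fold of 0.828, limma adjusted p = 7.05e-05). Prdx5, an atypical peroxiredoxin, averaged 30393 ± 1697 and 25622 ± 2257 (SD, n = 5), with 1 treated well, at 29482, inside the vehicle range (-0.25 ± 0.06, limma adjusted p = 0.002). Prdx6 at 500 µM read 27981, 28772, 28727, 27213 and 28377, all below the vehicle wells given above (-0.21 ± 0.05, limma adjusted p = 0.00107). Gpx1 read 30643, 32414, 29598, 30689 and 29499 at 500 µM, likewise below all vehicle wells (-0.19 ± 0.05, a fold of 0.877, limma adjusted p = 0.00558). Gpx4, Sod1, Prdx3 and Cat had -0.13, -0.13, -0.11 and 0.01 and were not called. Groups did not overlap for 4 of the 9, Sod2, Gpx1, Prdx2 and Prdx6, beside 27.4% of all genes. By place, 3 of the 4 cytosolic enzymes fell with a median of -0.20, and 2 of the 4 mitochondrial and peroxisomal ones with a median of -0.18.

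The falls at 500 µM and 48 h coincide with the shift in RNA quality. With the 3′/5′ ratio entered as a covariate none of the 9 was called by limma (0 of 9, where 3.97% of genes were called), with Sod2 at -0.12 (adjusted p = 0.426), Gpx1 at -0.13 (0.376), Prdx2 at -0.22 (0.061), Prdx5 at -0.20 (0.205) and Prdx6 at -0.13 (0.285). Arrays above and below the gap entered as a block left 1, Prdx2 (-0.22, limma adjusted p = 0.0369). Centring the arrays on their medians left 1, Sod2 (-0.30, adjusted p = 0.0273), where 32.3% of all genes were called. The Kupffer cell sum was 23700 to 26100 at 500 µM against 24700 to 29000 in vehicle. Of the tested genes of that list, Cd14 (mean signal 16100) was at 0.00 and Cd68 at -0.28, neither called. Lyz2 (mean signal 7110) fell by 0.20 on the log2 scale, and the cholangiocyte marker Epcam fell by 0.30. The part of other cells in these results was not tested.

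**Figure D3:**
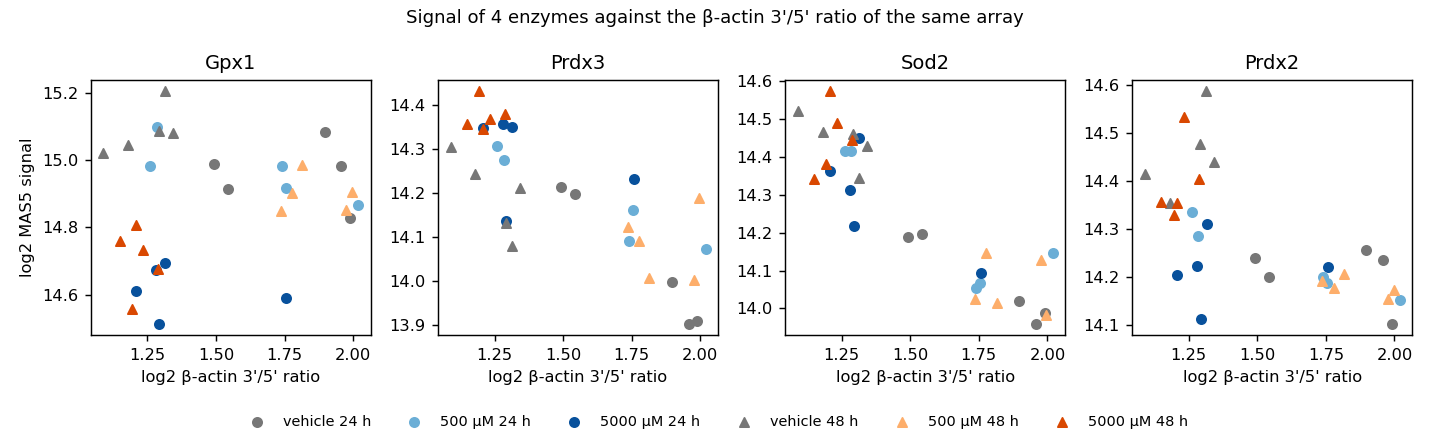
Log2 MAS5 signal of Gpx1, Prdx3, Sod2 and Prdx2 (y axis) against the β-actin 3′/5′ ratio on the log2 scale (x axis) on the 30 arrays, 1 point per array, with colours for the 6 groups, circles for 24 h and triangles for 48 h. No array lies between ratios of 1.54 and 1.74, and the 5 arrays of 500 µM at 48 h all lie to the right of that gap. The Gpx1 points at 5000 µM lie low, and only 1 of them, a 24 h array, lies to the right of the gap.

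In vehicle wells 4 of the 9 enzymes rose between 24 and 48 h and none fell (limma), where 32.5% of all genes were called, 13.4% higher and 19% lower. Sod2 rose by 0.37 ± 0.07 (adjusted p = 0.000237), Prdx2 by 0.25 ± 0.05 (adjusted p = 0.000356), Prdx5 by 0.23 ± 0.06 (adjusted p = 0.00547) and Gpx4 by 0.16 ± 0.06 (adjusted p = 0.0309). Sod2 and Prdx2 had every 48 h well above every 24 h well, which 22.8% of genes did in either direction. Gpx1 (0.13, adjusted p = 0.064) and Prdx3 (0.15, adjusted p = 0.0654) missed the threshold, and Cat (0.06) and Prdx6 (0.06) were nearest to 0. The median was 0.15, with 0.13 for the cytosolic and 0.19 for the mitochondrial and peroxisomal enzymes. The ratio fell over the same time, and with it as a covariate none of the 9 and 5.16% of all genes were called by limma. Sod2 was then at 0.14 (adjusted p = 0.258) and Prdx2 at 0.20 (adjusted p = 0.0609). With the gap as a block Sod2 (0.22), Prdx2 (0.21) and Prdx5 (0.22) kept their calls. Epcam rose by 0.56 ± 0.05 between the same groups, and its part was not tested.

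Set against each other, the doses differed in Gpx1 at both times. At 24 h the 5000 µM wells were lower than the 500 µM wells, 29888, 32372, 30963, 32365 and 35109.7, by -0.35 ± 0.05 with no overlap (limma, adjusted p = 4.67e-06), and Gpx1 was the 1 enzyme of the 9 called, where 31.2% of genes were called (16.8% higher and 14.3% lower) and 19.4% did not overlap. At 48 h the difference was -0.19 ± 0.05, again without overlap (limma, adjusted p = 0.00388), and it was -0.26 (adjusted p = 0.014) with the ratio as a covariate. At 48 h every 500 µM array lay above the ratio gap and every 5000 µM array below it, so that fit cannot separate dose from ratio. Gpx1 at 48 h thus read lower at 500 µM than in vehicle and lower again at 5000 µM. At 48 h 4 other enzymes were higher at 5000 than at 500 µM, where 47.6% of genes were called (19.4% higher and 28.2% lower): Sod2 by 0.39 ± 0.07, Prdx3 by 0.29 ± 0.06, Prdx2 by 0.21 ± 0.05 and Gpx4 by 0.16 ± 0.06 (limma, adjusted p from 4.81e-05 to 0.027). Groups did not overlap for Gpx1, Sod2, Prdx2 and Prdx3, 4 of the 9, as for 32.9% of all genes. These comparisons use the same treated wells as those with vehicle and are not separate evidence. The 500 µM wells at 48 h were those with high ratios. With the covariate Gpx1 alone of the 9 was called, where 20.9% of all genes were. Sod2 was then at 0.11 (adjusted p = 0.362) and Prdx3 at 0.07 (adjusted p = 0.543).

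The effect of 500 µM differed between the times for 6 of the 9 enzymes, all lower at 48 than at 24 h, in a test where 36.6% of genes were called (22.1% higher and 14.5% lower). The change was -0.53 ± 0.10 for Sod2 (limma, adjusted p = 0.000235), -0.33 ± 0.09 for Prdx5, -0.30 ± 0.07 for Prdx2, -0.25 ± 0.09 for Prdx3, -0.21 ± 0.08 for Gpx4 and -0.20 ± 0.08 for Gpx1 (adjusted p up to 0.0475). Both the vehicle and the treated wells changed ratio between these times, in opposite directions, and with the ratio as a covariate none of the 9 and 0.0352% of all genes were called. Because the ratio moved with the groups, that fit cannot separate dose from ratio, and a lost call does not show an absent effect. For 5000 µM none of the 9 was called between the times by limma, where 16.4% of genes were (7.74% higher and 8.66% lower). Sod2 and Prdx6 had an unadjusted p under 0.05, a threshold for which the share of all genes is not given.

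The probe set that lists both Prdx1 and Prdx1l1 cannot be assigned to either gene. Prdx1 is a cytosolic peroxiredoxin. The means of the shared probe set were 61114 ± 6735 (SD, n = 5) for vehicle wells after 24 h, 61762 ± 4282 with 500 µM and 63076 ± 4235 with 5000 µM. After 48 h they were 66509 ± 6332, 59664 ± 5769 and 68629 ± 6263. In a limma fit over all 31042 probe sets outside the controls it differed from vehicle by 0.02, 0.05, -0.16 and 0.05 at 500 and 5000 µM after 24 h and then after 48 h, with adjusted p from 0.194 to 0.97, and every pair of groups overlapped. The promoter of Prdx1 held 1 match to the antioxidant response element letters at bases -135 to -127. Gpx4 had a second probe set, with group means of only 464 to 637, for which no difference from vehicle was called in that fit (-0.36 ± 0.20 at 500 µM and 48 h was the largest). The other 8 enzymes had 1 probe set each.

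Enzymes varied together from well to well. After each group's mean was removed, Cat and Sod1 had a Pearson r of 0.94 over the 30 arrays, Gpx4 and Cat 0.85, Gpx4 and Prdx5 0.83, and Sod1 and Gpx1 0.82. Sod2 and Prdx3, both of the mitochondrial matrix, had 0.64 with each other, but -0.03 and -0.19 with Sod1 and -0.17 and -0.16 with Cat. These values describe arrays that share scaling and RNA quality and carry no test. Over all 30 arrays with group means left in, Gpx1 and Prdx3 had -0.44. The tested gene whose pattern over the 30 arrays was most like that of each enzyme was Akr7a3 for Gpx1 (r = 0.919), Psma1 for Sod2 (0.903), Ctbs for Prdx3 (0.89), Apoh for Sod1 (0.952), Chchd10 for Cat (0.892), Hspe1 for Gpx4 (0.929), Sec11a for Prdx2 (0.872), Rpl18 for Prdx5 (0.867) and S100a10 for Prdx6 (0.914). Akr7a3 is an aldehyde reductase.

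The relatives and partners of these enzymes were read from 5 lists. Of 7 other superoxide dismutases, glutathione peroxidases and peroxiredoxins, all 7 were on the array and 3 were bright enough to test: Gpx2, Gpx3 and Prdx4. Gpx2, a selenium-dependent glutathione peroxidase best known from gut epithelium, fell at 5000 µM, from a mean of 15070.0 to 11700.0 at 24 h (-0.36 ± 0.08, limma adjusted p = 0.000939) and from 17760.0 to 11510.0 at 48 h (-0.62 ± 0.08, adjusted p = 5.42e-07). It thus fell at the same dose and times as Gpx1. Prdx4, the peroxiredoxin of the endoplasmic reticulum, was at 0.10 (not called) and -0.18 ± 0.06 (adjusted p = 0.0126), and Gpx3, the secreted form, was at 0.05 and -0.15 (neither called). Median centring ended the Prdx4 call at 5000 µM and 48 h (-0.18, limma adjusted p = 0.16). At 500 µM none of the 3 was called at 24 h (limma, none at an unadjusted p under 0.05 either), and Prdx4 (-0.34 ± 0.06) and Gpx2 (-0.27 ± 0.08) fell at 48 h, calls of which Prdx4 remained with median centring and neither with the ratio as a covariate.

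The thioredoxin and glutathione systems that reduce these enzymes, and their regulators, made a list of 18, all tested. At 5000 µM 2 rose and 2 fell after 24 h, and 4 rose and 4 fell after 48 h. The called shares, 4 and 8 of 18, stand beside 38.1% and 32.6% of all genes. Median centring ended the 48 h calls of Glrx, Glrx3, Sesn2 and Txnl1. Txnip, which binds and restrains thioredoxin, had the largest rise, from a mean of 9366 to 18180.0 at 24 h (0.96 ± 0.05, limma adjusted p = 8.45e-16) and by 0.83 ± 0.05 at 48 h. It also rose at 500 µM, by 0.25 ± 0.05 and 0.35 ± 0.05. With the ratio as a covariate the 4 values were 0.93, 0.83, 0.23 and 0.40 in the same order, and median centring ended the call at 500 µM and 24 h (0.25, limma adjusted p = 0.282). Sesn3, of the sestrin family of stress-induced proteins, rose by 0.78 ± 0.13 and 0.44 ± 0.13 at 5000 µM by its brightest probe set, and a dimmer one, averaging 249, was at -0.09 and -0.04. Ccs, the chaperone that loads copper into Sod1, fell at 5000 µM by 0.40 on the log2 scale at 24 h, from 8651 to 6590.0, and by 0.36 at 48 h, while Sod1 itself was not called. Txn2, mitochondrial thioredoxin, the reductant of Prdx3, fell by 0.24 at 24 h and was at -0.05 at 48 h. Txn1, the cytosolic thioredoxin, was at 0.06 and 0.03, Gsr, glutathione reductase, at 0.09 and -0.01, and Txnrd2, mitochondrial thioredoxin reductase, at 0.15 and 0.07, none called. Txnrd1, cytosolic thioredoxin reductase, was at 0.05 and 0.21 by its brightest probe set, not called, but another probe set read 0.54 (adjusted p = 0.00129) at 24 h. Srxn1, which repairs overoxidised peroxiredoxins, was at -0.02 and -0.16 and not called.

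By their brightest probe sets this list had 2 genes higher at 500 µM and 24 h (Txnip and Glrx5) and 1 lower (Sesn1, -0.45 ± 0.12), where 2.86% of all genes were called, and none of these 3 was called with median centring. At 48 h 4 were higher and 4 lower, where 42.6% of all genes were called. Those higher were Sesn2 (0.43 ± 0.13), Txnip, Txnrd1 (0.34 ± 0.09) and Nnt, and those lower Gsr (-0.34 ± 0.13), Glrx2, Glrx3 and Txnl1. With the ratio as a covariate 1 of these 8, Txnip, was called at 48 h, and with median centring the 4 higher ones and no lower one. In the fit over all probe sets, other probe sets of several of these genes disagreed. A dimmer probe set of Sesn1 was at 0.08 at 24 h and at -1.09 (adjusted p = 0.000219) at 48 h, where the chosen one was at 0.08, and it read 0.80 (adjusted p = 0.00379) at 5000 µM and 24 h against -0.07. At 500 µM and 48 h another probe set of Txnrd1 was at -0.28 and not called. For Txnl1 a second bright probe set was at -0.39 (limma, adjusted p = 0.0134), in the direction of the chosen one. A dim one of Txnl1, averaging 82.9, was at 0.33 and not called. At the same dose and time Srxn1 read -0.05 by its chosen probe set and -0.76 (adjusted p = 0.000117) by another. Glrx, a glutaredoxin, read -0.10 and -0.68 (adjusted p = 0.000971). The values of Sesn1 and Txnrd1 at 500 µM are therefore those of single probe sets and give the genes no settled direction. For Srxn1 and Glrx the values at 500 µM and 48 h shared a sign but differed in size and call.

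**Figure D4:**
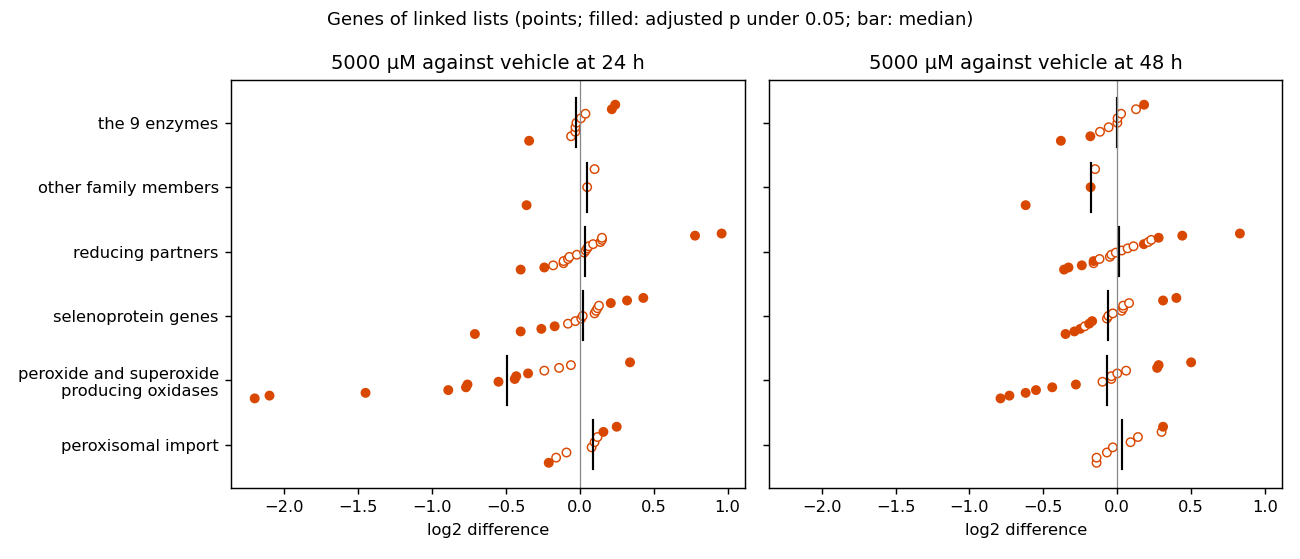
Log2 difference of 5000 µM from vehicle at 24 and 48 h (x axis) for the tested genes of the 9 enzymes and of the 5 linked lists, 1 point per gene, filled where the adjusted p was under 0.05, with a vertical bar at the median of each list. The oxidases at 24 h lie mostly below 0, with a median of -0.49, and the highest point of the reducing partners, Txnip, lies at 0.96 and 0.83.

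Gpx1 and Gpx4 need selenocysteine, and 15 of 17 listed genes of selenoprotein synthesis and other selenoproteins were tested. At 5000 µM 3 rose and 4 fell after 24 h and 2 rose and 5 fell after 48 h, 7 of 15 each time beside 38.1% and 32.6% of all genes. The 24 h calls of Selenok and Selenom were lost both with the ratio as a covariate and with median centring. That of Sepsecs was lost with the covariate and that of Sephs2 with centring. Centring also ended the 48 h calls of Sephs2 and Selenof. Scly, which frees selenium from selenocysteine for reuse, fell from a mean of 7921 to 4823 at 24 h (-0.71 ± 0.08, limma adjusted p = 5.32e-09). Secisbp2, a protein that reads the selenocysteine insertion element, rose by 0.43 ± 0.10 and 0.40 ± 0.10 at 24 and 48 h. Pstk, a kinase of selenocysteine synthesis, fell by 0.35 at 48 h. At 500 µM none was called at 24 h (limma, 1 at an unadjusted p under 0.05), and 3 rose and 7 fell at 48 h, where 42.6% of all genes were called, with Sepsecs at 0.58 ± 0.13 and Selenof at -0.47 ± 0.06. Selenot was not called by its brightest probe set, but another read 0.65 (adjusted p = 2.53e-06) at 5000 µM and 24 h, and 0.37 (0.048) and -0.53 (0.00011) at 500 µM after 24 and 48 h. The counts at 500 µM and 48 h became 0 and 2 with the ratio as a covariate and 3 and 3 with median centring.

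Oxidases that make hydrogen peroxide or superoxide had the most calls of the 5 lists at 5000 µM and 24 h, where 10 of 14 tested fell and 1 rose, beside 19.6% of all genes lower and 18.6% higher. Their median difference was -0.49, beside 0.00 for all genes and -0.02 for the 9 removing enzymes. Hao1, the peroxisomal glycolate oxidase of liver, fell from a mean of 5782 to 1230.0 (-2.20 ± 0.13, limma adjusted p = 5.64e-15), and Hao2, a related hydroxyacid oxidase, from 5153 to 1209 (-2.10 ± 0.12). Sqor, a mitochondrial sulfide oxidoreductase that was on the list though not chiefly a peroxide-forming oxidase, was the 1 that rose, by 0.34 ± 0.05. At 48 h 6 fell and 3 rose, beside 18% and 14.6% of all genes, with a median of -0.07. Those that rose were Maoa, Ero1a and Ero1b. Paox, a polyamine oxidase, had -0.79 ± 0.09 and Hao1 -0.73 ± 0.13. These counts were 9 and 1 at 24 h and 6 and 3 at 48 h with the ratio as a covariate. Median centring ended the 48 h calls of Acox2 (-0.28, limma adjusted p = 0.113) and Maoa (0.27, adjusted p = 0.0641), and none at 24 h. At 500 µM 1 fell at 24 h (Ero1b, -0.26 ± 0.07), beside 1.21% of all genes. That call was lost with the ratio as a covariate (-0.21, limma adjusted p = 0.066) and with median centring (-0.25, adjusted p = 0.335). At 48 h 5 rose and 1 (Hao2) fell at this dose, beside 24% and 18.6%, and centring ended the call of Hao2 (-0.23, adjusted p = 0.24). Those that rose, by their brightest probe sets, were Ero1a (0.61 ± 0.18), Acox2 (0.48 ± 0.10), Xdh, Aox1 and Ero1b, and with the ratio as a covariate none of the 14 was called by limma. Dimmer probe sets of Ero1a and Ero1b lay the other way at 48 h, at -0.33 and -0.49, neither called, as did that of Ero1b at 5000 µM and 24 h (0.38, not called, against a chosen -0.35).

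Cat and part of Prdx5 reach peroxisomes through the import machinery, of which 8 of 10 listed genes were tested. At 5000 µM Pex7 (0.25 ± 0.06) and Pex13 rose and Pex5 (-0.21 ± 0.07), the receptor for the common import signal, fell at 24 h, and Pex7 (0.31 ± 0.06) alone was called at 48 h, 3 and 1 of 8 beside 38.1% and 32.6% of all genes. With median centring only Pex5 was called at 24 h, and with the ratio as a covariate only Pex7. At 500 µM none was called at 24 h (limma, 2 at an unadjusted p under 0.05). At 48 h Pex5 (0.57 ± 0.07), Pex6 (0.53 ± 0.17) and Pex14 rose and Pex2 fell, 4 of 8 beside 42.6% of all genes, and Pex5 remained called with the ratio as a covariate. A dimmer probe set of Pex5 was at -0.25 there and not called.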

How the data were processed

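Gene expression was measured on 30 Affymetrix rat arrays, 5 wells in each of 6 groups taken from the sample titles. The titles number the arrays serially but do not say that any wells were paired, so replicate numbers only name them. The deposited values are linear intensities, made by the authors with MAS5, per the submitters' processing notes. The version is not given in the sources used here, nor is the target of the scaling, but 2% trimmed means of 1500.55 to 1500.66 show that the arrays had been scaled to 1 level. The arrays' number limits the precision.

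Values were log2-transformed without further scaling. Of 31099 probe sets, 57 controls were left out. The platform annotation gave 1 symbol for 20826 probe sets, several for 436 and none for 9780. Symbols were updated through Entrez identifiers (20758 matched) in the RefSeq table of build GRCr8. Probe sets with several symbols named no gene, which left Prdx1 without one. Each gene was read from its brightest probe set, and the brightest 60% of genes, 8531, were tested.

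limma 3.58.1 in R 4.3.3 fitted a mean per group to all arrays (24 residual and 7.58 prior degrees of freedom, eBayes with an intensity trend) and gave 9 comparisons. The fit was tested on simulated data. The members and gene lists were chosen with earlier results of these data known. Genes named were the members, per linked list and dose comparison the 2 called genes of largest absolute difference, 9 partners fixed whatever their values (Prdx4, Gpx3, Txnrd1, Srxn1, Gsr, Txn1, Txn2, Txnrd2 and Ccs), and the tested gene most like each member. Glrx5, Nnt, Glrx2, Glrx3, Txnl1, Sqor, Maoa, Xdh, Aox1, Glrx, Selenot, Selenok, Selenom, Sephs2, Pex13, Pex14, Pex2, and in some comparisons Hao2, Acox2, Ero1a, Ero1b, Txnrd1, Gsr, Sesn2, Sepsecs and Selenof, were named to complete small counts or to tell which calls were lost, after their values were seen. Alternatives were other probe set, filter, scaling and sample choices, a covariate for the 3′/5′ ratio, and leaving out each array. A block of arrays above or below the gap in that ratio, the arrays below it alone, and a block of serial number sets were added after the data were seen.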

Additional observations from a re-analysis of the deposited data

Results flagged for a closer look

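Sod1 at 500 µM and 48 h had 1 array, at 52500, that stood apart from the other 4, the nearest of which was at 46900. The gap was 0.711 of the group's range, against a critical value of 0.71, and 54 sets of 5 arrays were examined, of which chance alone marks about 1 in 20. The effect of 500 µM differed between 48 and 24 h, by limma's test of the difference, for Sod2 (-0.53, adjusted p = 0.000235), Prdx5 (-0.33, adjusted p = 0.00433), Prdx2 (-0.30, adjusted p = 0.00154), Prdx3 (-0.25, adjusted p = 0.0278), Gpx4 (-0.21, adjusted p = 0.0475) and Gpx1 (-0.20, adjusted p = 0.0382). The 3′/5′ β-actin ratio rose at 500 µM and fell in vehicle between the same times, and with it as a covariate none of these 6 differences was called, as given above.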

How the results depend on the processing

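The fall of Gpx1 at 5000 µM against vehicle and against 500 µM, at both times, kept its direction and its call under every alternative that gave it a value. Between 5000 and 500 µM at 48 h, dose and ratio cannot be told apart under any of them. Counts of called enzymes of 9 moved most with the 3′/5′ ratio and with centring arrays on their medians. With the ratio as a covariate they became 0 at 500 µM and 48 h, 1 at 5000 µM and 24 h, 1 for 5000 against 500 µM at 48 h, 0 in vehicle over time and 0 for the 500 µM difference between times, where Prdx3 turned to 0.02 (limma, adjusted p = 0.94). The shares of all genes called were then 3.97%, 30.5%, 20.9%, 5.16% and 0.0352% in the same order. Median centring gave 1, 1, 2, 1 and 1 for the same comparisons and 1 at 5000 µM and 48 h. Of all genes it called 32.3%, 29.9%, 40.7%, 23.8% and 24.7% in these, and 21.9% at 5000 µM and 48 h. It moved the median of all genes by up to -0.13 (5000 against 500 µM at 48 h) and 0.12 (500 µM difference between times), and the split of all called genes, higher and lower, from 2044 and 1588 to 2324 and 432 at 500 µM and 48 h, from 1583 and 1669 to 809 and 1745 at 5000 µM and 24 h, and from 1145 and 1625 to 284 and 1746 in vehicle over time. A block of the ratio gap gave 1 at 500 µM and 48 h, 1 for the doses at 48 h and 1 for the 500 µM difference, and arrays below the gap alone gave 1 at 5000 µM and 24 h. Quantile normalization gave 5 at 5000 µM and 48 h, adding Cat (0.13) and Prdx5 (-0.13), 3 for the 500 µM difference and 1, Prdx6, for the 5000 µM difference. Beside these stood 34.2%, 35.6% and 18.8% of all genes in the same order. Leaving out each array gave 3 to 7 for the 500 µM difference, the lowest without vehicle 24 h replicate 1, 500 µM 24 h replicate 4 or 5 or 500 µM 48 h replicate 3, and 1 to 2 for the doses at 24 h, 2 without 500 µM 24 h replicate 3. The titles number the arrays serially, in 5 sets of 6 with 1 array of each group, without saying that a set was handled together. Deviations from the group means correlated above 0.1 in 31 of 75 same-set pairs (median 0.06, range -0.32 to 0.43). The median over 300 pairs from different sets was -0.02, and 19 of 30 arrays correlated best with their own set. Whether a set was handled together was not tested, and the main fit does not pair the wells by set. A replicate block of these sets, added after the data were seen, ended no call and added Prdx3 at 500 µM and 48 h (6 called) and in vehicle over time (5 called) and Prdx6 for the 500 µM difference (7 called). The block with the ratio as a covariate gave 0 at 500 µM and 48 h, 1 for the doses at 48 h, 0 in vehicle over time, 0 for the 500 µM difference and 2 at 5000 µM and 24 h, Prdx3 (0.16, adjusted p = 0.0428) with Gpx1, and it turned Sod2 to -0.03 there (adjusted p = 0.777) and to -0.01 (0.972) for the doses at 48 h. At 48 h no 500 µM array lay below the gap, so that subset gave no value there.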
